A study of Caenorhabditis elegans with 14 samples.

Results

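Wild-type animals (N2, the standard laboratory strain of C. elegans) were compared between growth temperatures, with 4 small RNA libraries from animals grown at 25 °C and 3 from animals grown at 20 °C. These are the 7 wild-type libraries among the 14 of the series, chosen by their labelled genotype. The other 7, from pash-1(ram33) mutants (3 at 20 °C and 4 at 25 °C), enter only the last comparison. Each library came from whole gravid hermaphrodites, grown from synchronized L1 larvae for 72 h at 20 °C or for 54 h at 25 °C. No allele, transgene or drug was added to the wild-type animals. The study calls the libraries biological replicates but the labels do not say whether they came from separate cultures, and p-values measure the spread between these libraries, which may be partly technical. The temperatures also differ in growth time and in the table that holds them. Temperature, hours of growth and batch therefore cannot be told apart in any comparison below.

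Several kinds of small RNA share these animals. miRNAs are cut from hairpins by Drosha with Pasha and then by Dicer, and repress mRNAs. piRNAs are 21-nt RNAs of the germline, bound by the Argonaute PRG-1, and most are transcribed as separate tiny genes on chromosome IV. 22G siRNAs are made by RNA-dependent RNA polymerases on mRNA templates, and those of the CSR class come from germline-expressed genes while those of the WAGO class come largely from silenced genes, pseudogenes and transposons. 26G siRNAs act upstream, the ERGO class in oocytes and embryos and the ALG class in spermatogenesis, and ERGO-class 26G siRNAs are known to trigger 22G siRNAs from their targets.

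The tables list 23869 features in 8 classes, of which 18972 were above 0 in at least 1 wild-type library. Their values are reads per 1000000 reads of the library (rpm). The depth estimated from the smallest step between low values was 16400000 to 22200000 reads at 20 °C and 21200000 to 23500000 at 25 °C. Markers of the labelled tissue were present. The oocyte and embryo miRNA miR-35-3p averaged 75920 rpm at 20 °C and 90410 rpm at 25 °C, and the muscle miRNA miR-1-3p was the most abundant of all, at 201400 and 194600 rpm. For single features, rpm was rescaled by median-of-ratios size factors over the 7 libraries, 0.1 rpm was added and log2 was taken. The 6412 features that averaged 1 rpm or more over these libraries were then fitted with limma, with p-values adjusted over all of them and a threshold of 0.05. Differences are given as 25 °C minus 20 °C on this log2 scale, which understates changes of features near 0.1 rpm.

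The piRNA total was lower at 25 °C. Their total was 71730, 78295 and 81153 rpm in the 3 libraries at 20 °C, and 40192, 44540, 39460 and 40578 rpm in the 4 at 25 °C. Every library at 25 °C was below every library at 20 °C, and the mean was 46.5% lower. The miRNA total, which made up most reads, went from 806333 ± 7955 rpm (SD, n = 3) to 835943 ± 3966 rpm (n = 4), 3.67% higher. Reads from hairpins outside the mature miRNAs (the pre-miRNA class) were 522 to 575 rpm at 20 °C and 957 to 980 rpm at 25 °C, 76.9% higher. The iso-miRs, miRNA reads whose start is shifted by a few nt from the annotated one, were 5.48% higher. For each of these 4 classes the temperatures did not overlap, and the two-sided exact permutation test gave p = 0.0286, the smallest that 35 arrangements allow, or 0.0571 after adjustment over the 8 classes. The class totals are not independent. They are shares of the reads of a library, so a fall in any class by itself raises the others. How much of each rise, here or among the siRNA classes, follows from the piRNA fall was not tested.

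The siRNA classes changed less in total. CSR-class 22G siRNAs summed to 12847 to 14240 rpm at 20 °C and to 14907 to 17553 rpm at 25 °C, 19.6% higher, with no overlap (exact permutation p = 0.0571). WAGO-class 22G siRNAs were 1369 to 1488 rpm and 1437 to 1663 rpm, which overlap (exact p = 0.143). The ALG class (246 to 368 rpm against 213 to 316 rpm) and the ERGO class (782 to 957 rpm against 881 to 1008 rpm) overlapped as well, each with exact p = 0.457. The direction for the ALG class rested on the first library at 20 °C, without which the change of -12.6% became 1.11%. In whole animals, fewer cells of a type and less small RNA per cell cannot be told apart, and this holds for each total.

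**Figure D1:**
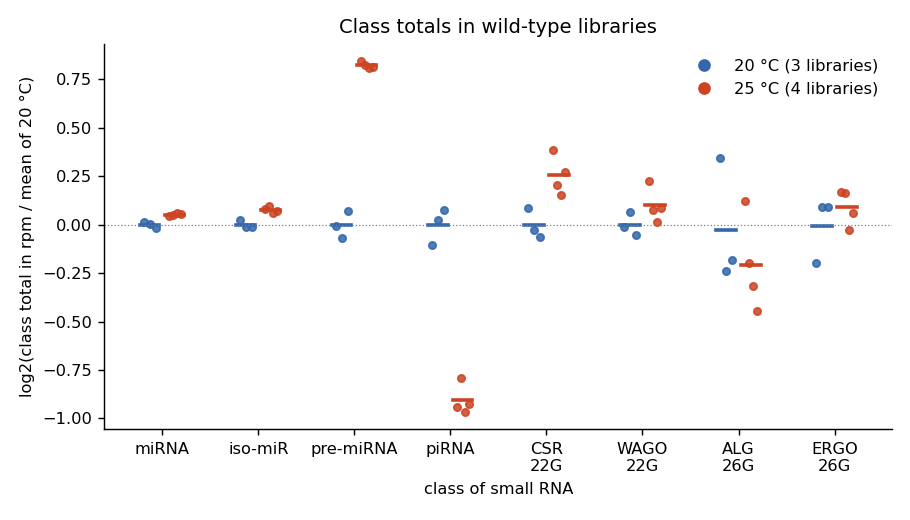
Class totals of each wild-type library, as log2 of the total in rpm over the mean of the 20 °C libraries, by class. Points are libraries (3 at 20 °C, 4 at 25 °C) and bars are group means. The piRNA points at 25 °C lie lowest, those of pre-miRNAs highest, and the temperatures overlap for WAGO, ALG and ERGO siRNAs.

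Among single features, 1612 of 6412 were higher at 25 °C (25.1%) and 1844 were lower (28.8%). The calls divided by class. Of 3000 tested piRNAs, 1790 were lower (59.7%) and 53 higher (1.77%). Of 2622 CSR-class features, 1252 were higher (47.7%) and 13 lower. The miRNAs gave 120 higher (51.1%) and 19 lower (8.09%) of 235, the iso-miRs 48 and 4 of 107, the pre-miRNAs 20 and 3 of 32, the WAGO class 100 and 8 of 346, the ERGO class 15 and 6 of 45, and the ALG class 4 and 1 of 25. Of the features called higher, 158 were under 1 rpm at 20 °C, and of those called lower, 251 were under 1 rpm at 25 °C, so that these passed the minimum through the other temperature. The directions also depend in part on the scaling. The size factors were 1.046 to 1.14 at 20 °C and 0.884 to 0.979 at 25 °C, which moved the median of all features from -0.14 in rpm as deposited to 0.06. In deposited rpm the WAGO class gave 47 higher and 28 lower, the ERGO class 11 and 11, the ALG class 1 and 2, the iso-miRs 23 and 7 and the pre-miRNAs 17 and 5. Over all features the split in deposited rpm was 768 higher and 2223 lower, and after scaling to the piRNA total, where the median is 0.73, it was 3934 and 473. Calls that kept their direction under all 5 scalings numbered 650 higher and 473 lower, among them 467 piRNAs lower and 16 higher, 489 CSR-class features higher and 0 lower, and 56 miRNAs higher and 1 lower.

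The decrease of the piRNAs differed along chromosome IV. Of the 3000 tested, 2988 lie in 2 stretches of that chromosome (WBcel235 annotation), and the 1 Mb windows within each stretch were alike. On the left, between 4 and 7 Mb, 300 of 326 tested piRNAs were lower at 25 °C and 0 higher, with a median difference of -1.45. On the right, between 13 and 18 Mb, 1490 of 2662 were lower and 45 higher (median -0.52). Of the 1790 piRNAs called lower in all, 246 were under 1 rpm at 25 °C. These met the minimum only through 20 °C, and their split between the stretches was not counted. The medians of the windows were -1.63, -1.45 and -1.32 on the left and -0.65 to -0.49 on the right. A decrease of more than 1 on the log2 scale was called for 252 piRNAs of the left stretch (77.3%) and for 369 of the right stretch (13.9%). Strand made little difference, with medians of -1.44 and -1.45 for the plus and minus strands on the left and -0.50 and -0.54 on the right.

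Reads of the stretches were also compared inside each library, which needs no scaling. The 2827 listed piRNAs of the left stretch gave 6.85, 6.59 and 7.12 reads per 100 reads of the 11574 on the right at 20 °C. At 25 °C they gave 3.83, 3.92, 3.85 and 3.79. All 4 libraries at 25 °C were below all 3 at 20 °C, and the mean ratio was 43.8% lower (two-sided exact permutation p = 0.0286, the smallest possible). In rpm, the left stretch fell by 69.1%, from 4941 ± 407 (SD, n = 3) to 1525 ± 103 (n = 4), and the right stretch fell by 45.1%, from 72073 ± 4461 to 39591 ± 2175. The grouping into these stretches was made after the values by 1 Mb window had been seen. The same ratio in pash-1(ram33) libraries, which did not enter that choice, was 7.17 to 7.52 at 20 °C and 3.84 to 4.09 at 25 °C, again without overlap.

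The stretches also differed at higher abundance. Among piRNAs with a mean of 5 to 20 rpm the median was -1.45 on the left (86 piRNAs) and -0.55 on the right (720). Among those of 20 to 100 rpm it was -1.61 (19) and -0.58 (380). Under 2 rpm it was -1.44 (122) and -0.46 (696). These last medians are a description only, since piRNAs that fell could meet the minimum through 20 °C alone. Scaling to the piRNA total leaves the left stretch lower, with a median of -0.78, and turns the median of the right stretch to 0.16.

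**Figure D2:**
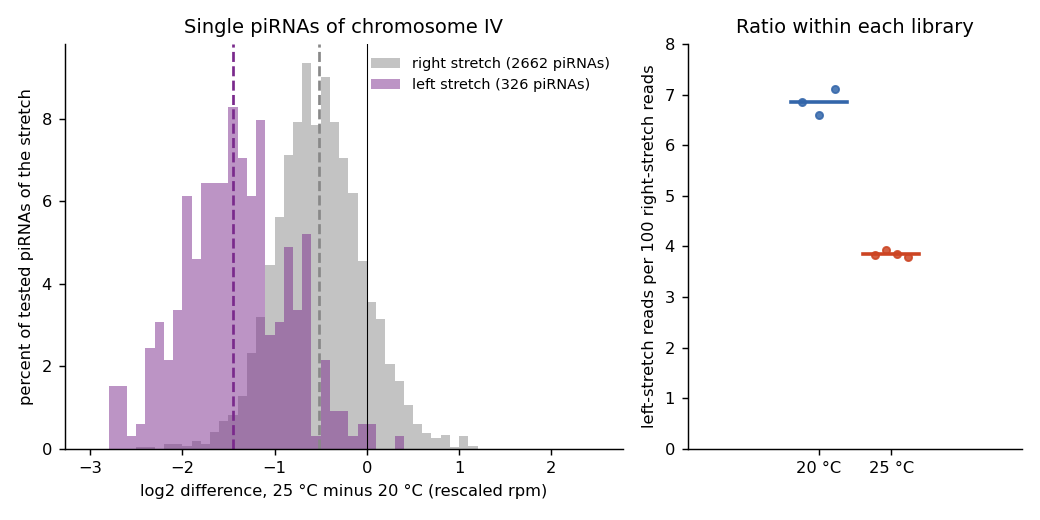
Left panel, distribution of the log2 difference (25 °C minus 20 °C, rescaled rpm) of single tested piRNAs, as percent of the 326 in the left and the 2662 in the right stretch of chromosome IV, with dashed lines at the medians. Right panel, reads of the left stretch per 100 reads of the right stretch in each wild-type library, with bars at the means. The left stretch is centred at -1.45 and the right at -0.52, and the ratio is 6.59 to 7.12 at 20 °C and 3.79 to 3.92 at 25 °C.

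The 4 largest decreases among piRNAs with at least 5 rpm and no overlap all belonged to the left stretch. 21ur-5622, on chromosome IV from 6281641 to 6281661, within an intron of srv-32 on the opposite strand, had 413, 387 and 337 rescaled rpm at 20 °C and 71.8, 73.0, 68.4 and 67.7 at 25 °C. It was 5.37-fold lower (log2 difference -2.43, standard error 0.0906, limma adjusted p = 1.27e-22). 21ur-5213, in an intron of unc-77 from 6178898 to 6178918, fell from 23.2 to 30.2 rescaled rpm at 20 °C to 4.08 to 4.74 at 25 °C, 5.91-fold. 21ur-8348 and 21ur-1242 were 5.16-fold and 4.96-fold lower. The most abundant piRNAs, chosen after their values were seen, lie in the right stretch. 21ur-3421, from 13700230 to 13700250, had 1730, 1900 and 1660 rescaled rpm at 20 °C and 847, 962, 965 and 1000 at 25 °C (log2 difference -0.91). 21ur-2290, in an intron of hpa-1, was 2.41-fold lower.

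Rises among piRNAs were few. Outside both stretches 962 piRNAs are listed, and their total over all of them rose from 38.6, 42.9 and 53.1 rpm at 20 °C to 71.1, 79.0, 77.4 and 76.8 rpm at 25 °C (exact permutation p = 0.0286). Of these, 12 reached a mean of 1 rpm, on chromosomes I, II, V and X and near the middle of chromosome IV. Their calls, 8 higher and 0 lower, are no support for a rise, since 5 of the 8 were under 1 rpm at 20 °C and entered only through the libraries at 25 °C. 21ur-6613, on chromosome IV from 12386900 to 12386920, had 4.00 to 4.24 rescaled rpm at 20 °C and 7.6 to 11.1 at 25 °C (log2 difference 1.08, adjusted p = 9.96e-07). 21ur-5883, from 9140165 to 9140185 in an intron of daf-10 on the opposite strand, was 1.79-fold higher. In the right stretch 45 were higher, 10 of them by more than 1. Among those of at least 5 rpm whose libraries did not overlap, the largest rises there were those of 21ur-4341 (0.54) and 21ur-5156 (0.52).

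Among miRNAs, the most abundant moved little. miR-35-3p had 67900, 75800 and 66100 rescaled rpm at 20 °C and 92900, 97900, 101000 and 92900 at 25 °C, without overlap (log2 difference 0.46, standard error 0.0643, limma adjusted p = 1.97e-07), and it was also higher in deposited rpm (0.25). miR-37-3p, of the same cluster, was higher by 0.35, and by 0.14 in deposited rpm. For miR-1-3p the libraries overlapped, at 153000 to 208000 rescaled rpm against 190000 to 233000 (0.16, adjusted p = 0.0665). miR-71-5p, a neuronal regulator of lifespan, was at 0.21 (adjusted p = 0.0112), but its difference in deposited rpm was -0.0018. The others of the 10 most abundant, miR-58a-3p, miR-80-3p, miR-48-5p, miR-39-3p, miR-65-5p and miR-64-5p, were higher by 0.21 to 0.30, and in deposited rpm their differences were 0.005 to 0.093. The call of miR-71-5p was lost without the second library at 20 °C (0.16) or the fourth at 25 °C (0.18), and that of miR-65-5p without the third at 20 °C (0.14). miR-1-3p passed without the first at 20 °C (0.24) or the second at 25 °C (0.21). All 10 lay between 0.16 and 0.46, near the median of 0.25 over all 235 miRNAs tested.

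Among arms of at least 5 rpm whose libraries did not overlap, the largest increases were in scarcer arms, several of them the less abundant arm of their hairpin. miR-67-5p, from a hairpin in an intron of zmp-1 (chromosome III, 5931349 to 5931447), had 2.39, 3.70 and 3.40 rescaled rpm at 20 °C and 10.6, 9.68, 11.7 and 7.74 at 25 °C. That is 3.09-fold higher (log2 difference 1.63, standard error 0.177, adjusted p = 1.07e-09). The 3 miR-1829 hairpins together with mir-4812 had 8 arms tested, of which 7 were higher and 0 lower (5 and 0 in deposited rpm), beside 51.1% higher over all miRNAs. Its median was 1.3 (1.1 in deposited rpm) against 0.25 for all miRNAs, with miR-4812-5p (0.43) and miR-4812-3p (0.79) below the other arms called. miR-1829a-5p, in an intron of gas-1, had 70.5, 67.6 and 58.9 rescaled rpm at 20 °C and 165, 156, 177 and 163 at 25 °C, 2.52-fold higher. miR-1829b-3p had 25.6 to 36.7 and 83.0 to 91.8. miR-1829c-3p had nearly the same values as miR-1829b-3p (means 33.3 and 81.5 rpm against 33.4 and 81.8 rpm), and whether these 2 arms share reads was not tested. miR-1829b-5p was the member that passed in neither direction (0.32). 

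miR-42-3p, a member of the mir-35 family that is needed in embryos, was 2.47-fold higher, with 102, 130 and 124 rescaled rpm at 20 °C and 268, 319, 314 and 270 at 25 °C. miR-49-5p was 2.49-fold and miR-52-3p 2.79-fold higher. miR-44-5p rose from 119 to 140 rescaled rpm to 277 to 309, 2.31-fold. Its hairpin forms a cluster with mir-42 and mir-43 on chromosome II (11889811 to 11890118, plus strand), and all 5 tested arms of this cluster were higher, by 0.58 to 1.3. They were also higher in deposited rpm. miR-45-5p, from a separate hairpin that encodes the same 3p miRNA, was higher by only 0.25, and by 0.04 in deposited rpm. Its call was lost without the third library at 20 °C (0.14) or the third or the fourth at 25 °C (0.23 and 0.22). miR-44-3p and miR-45-3p were identical in every library.

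The hairpins of the neighbouring mir-35 to mir-41 cluster (chromosome II, 11537608 to 11538404) did not move by one amount. Of 14 tested arms, 10 were higher and 1 lower, from -0.21 for miR-41-5p to 0.96 for miR-39-5p, beside 51.1% higher over all miRNAs. With mir-42, the whole mir-35 family had 12 of 16 arms higher and 1 lower, and 7 and 2 in deposited rpm. miR-38-3p had 198, 242 and 248 rescaled rpm at 20 °C and 337, 429, 398 and 352 at 25 °C, while miR-41-5p had 554 to 593 and 463 to 518. The direction for miR-41-5p turned to 0.49 when libraries were scaled to the piRNA total. Its call was lost without the first library at 20 °C (-0.18) or the first, the second or the third at 25 °C (-0.20, -0.17 and -0.21).

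Decreases among miRNAs were led by miR-58b-5p. It had 10.5, 11.6 and 8.35 rescaled rpm at 20 °C and 1.83, 2.23, 1.97 and 1.6 at 25 °C, 5.08-fold lower (log2 difference -2.35, standard error 0.193, adjusted p = 1.15e-12). Its hairpin lies on chromosome IV from 6660461 to 6660519, inside the left piRNA stretch, and it was the only miRNA called lower under all 5 scalings. The next decreases among arms of at least 5 rpm were smaller. miR-239a-3p, from a hairpin known for its response to heat, was 1.7-fold lower (11.8 to 21.3 against 8.73 to 10.4 rescaled rpm). miR-2212-5p and miR-1819-3p, whose hairpins are neighbours on chromosome X (16207829 to 16208035), were 1.62-fold and 1.51-fold lower. miR-34-3p, the lesser arm of a stress-related hairpin that rises with age, went from 17.6 to 18.2 rescaled rpm to 10.9 to 12.8, whereas its main arm miR-34-5p passed in neither direction (-0.05, or -0.26 in deposited rpm).

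Of 148 hairpins found in the annotation, 3 overlap annotated piRNA genes on the same strand. Their 4 tested arms gave 0 higher and 3 lower, against 120 higher and 16 lower of the other 231. miR-78, which overlaps 21ur-10414 and 21ur-9780, had 112, 111 and 121 rescaled rpm at 20 °C and 78.0, 76.4, 82.2 and 80.6 at 25 °C (log2 difference -0.53, adjusted p = 8.01e-06). miR-790-5p and miR-790-3p, which overlap 21ur-1430, were lower by -0.48 and -0.51. miR-8198-3p was at -0.37 (adjusted p = 0.281). The overlap was looked for after these values had been seen, and scaling to the piRNA total turned miR-78 to 0.16 and the miR-790 arms to 0.22 and 0.18.

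**Figure D3:**
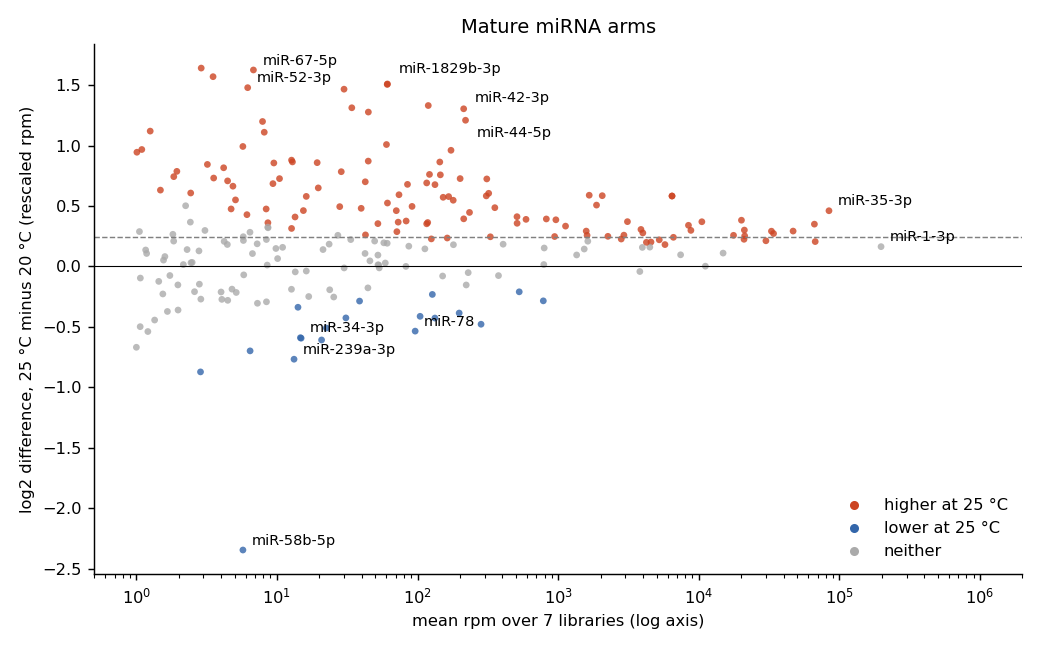
Log2 difference (25 °C minus 20 °C, rescaled rpm) of each tested mature miRNA arm against its mean rpm over 7 libraries on a log axis. The dashed line is the median of 0.25. Abundant miRNAs lie close to this line, large rises (miR-67-5p, the miR-1829 arms, miR-42-3p) lie under 1000 rpm, and miR-58b-5p stands alone at -2.35.

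Families known for a tissue or stage were mostly near the median of all miRNAs. Of 12 tested arms of the let-7 family, which times late larval development, 7 were higher and 2 lower (2 and 3 in deposited rpm), near the 51.1% and 8.09% of all miRNAs. miR-241-5p was its largest abundant rise, from 1190 to 1370 rescaled rpm to 1760 to 2250, and it was also higher in deposited rpm (0.38). let-7-5p was at 0.31, or 0.10 in deposited rpm, and miR-84-3p was lower (-0.29). Its call was lost without the third library at 20 °C (-0.26) or the second or the third at 25 °C (-0.24 and -0.28). Of 6 arms of neuronal and glial miRNAs, 1 was higher and 0 lower, and 1 and 1 in deposited rpm. Their median of -0.01 was below that of all miRNAs. Of 15 arms of stress and lifespan miRNAs, 6 were higher and 2 lower (median 0.14), and 1 and 3 in deposited rpm. miR-228-5p of glia was at 0.16 (adjusted p = 0.0880), and lin-4-5p at 0.10 (adjusted p = 0.355). Without the first library at 20 °C both passed (0.22 each), and miR-228-5p also without the second at 25 °C (0.21). miR-246-3p, which rises with adult age, was at 0.28, or 0.07 in deposited rpm. The miR-2 family had 7 tested arms, 6 of them higher and 0 lower (median 0.73), and 4 and 0 in deposited rpm. miR-2-3p went from 74.0 to 107 rescaled rpm to 137 to 157, and miR-43-3p was higher by 1.11.

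The ratio of the arms of a hairpin asks whether a change was shared by both products of one precursor. Both arms were measured in 82 hairpins, and the 5p to 3p ratio changed in 22 of them (26.8%), with 13 ratios higher and 9 lower. The arm with the lower mean over the 7 libraries gained in 13 hairpins and lost in 9 (median over all hairpins 0.02). Taking the arm that was lower at 20 °C, these were 14 and 8, since the arms of mir-67 changed order. The largest shift was in mir-67, whose log2 ratio of 5p to 3p went from -0.86 to 0.49, so that the 5p arm passed from the lesser to the more abundant (difference 1.34, adjusted p = 0.0042). miR-4813, miR-244 and miR-54 shifted toward 5p by 0.94, 0.91 and 0.77. For miR-244 this rests on a scarce 3p arm, with 1.10 to 1.89 rpm at 20 °C and 0.52 to 0.83 rpm at 25 °C. That arm met the minimum of 1 rpm only through 20 °C, so its shift is a description only. Among the 22, the 5p arm of miR-85 met the minimum through 25 °C, with 0.43 to 1.03 rpm at 20 °C. miR-1829b, miR-52 and miR-788 shifted toward 3p by -1.19, -1.14 and -1.07, and miR-229 by -0.66. For miR-1829b this rests on a 3p arm whose values nearly equal those of miR-1829c-3p. The miR-52 shift came with a main arm, miR-52-5p, that was higher by 0.34 only.

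The iso-miR to mature ratio changed in 10 of 103 miRNAs (9.71%), 4 higher and 6 lower. This count was 4 without the first library at 20 °C, and 2, 3 and 6 without the first, the third and the fourth at 25 °C. The largest was miR-243-3p, with a difference of -1.50 (adjusted p = 0.00115), and its iso-miR had 10.2, 9.21 and 10.5 rescaled rpm at 20 °C and 4.82, 3.84, 3.84 and 4.53 at 25 °C. miR-239a-3p (0.97), miR-1020-3p (0.84) and miR-84-3p (0.74) had more iso-miRs relative to the mature form at 25 °C. In rescaled rpm, 8 iso-miRs rose by more than 1. Those of at least 5 rpm among them were the iso-miRs of miR-49-3p (1.36), miR-4813-5p (1.3) and miR-42-5p (1.21).

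Reads from hairpins outside the mature miRNAs rose in most of the 32 hairpins tested. mir-8196.1, on chromosome X from 2328994 to 2329124, had 96.4, 103 and 97.2 rescaled rpm at 20 °C and 354, 400, 439 and 416 at 25 °C. It was 4.06-fold higher (log2 difference 2.02, standard error 0.0879, adjusted p = 1.62e-20). mir-8196.2, elsewhere on chromosome X, was 3.43-fold higher. Without these 2 hairpins the class total was still 27.8% higher, at 394 to 445 rpm against 524 to 586 rpm (exact permutation p = 0.0286). mir-4936 (3.28-fold), mir-45 (3.19-fold), mir-80 (3.01-fold) and mir-66 (2.68-fold) followed. The hairpin F39B1.3 rose 2.84-fold. Its values (26.1 to 37.1 and 84.0 to 92.6 rescaled rpm) nearly equal those of miR-1829b-3p and miR-1829c-3p, and whether they share reads was not tested. mir-8199, higher by 0.99, is also among the genes with both 26G and 22G siRNAs described below. mir-260, higher by 0.88, lies within another of those genes, the pseudogene F39E9.7, on the opposite strand. Whether the reads of these 2 come from hairpins or are siRNAs was not tested.

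In the mir-35 cluster, reads outside the mature miRNAs went in opposite directions. They fell for mir-37, from 7.86, 9.44 and 9.40 rescaled rpm to 5.05, 3.14, 2.98 and 2.56 (2.62-fold, adjusted p = 1.55e-07), and for mir-35, from 4.57 to 5.18 to 1.69 to 3.83 (2.01-fold). For mir-38 they rose by 0.98. The mature miR-37-3p and miR-35-3p of the same hairpins were higher by 0.35 and 0.46. Reads of mir-78 outside its mature miRNA were 1.82-fold lower. Scaled to the piRNA total, their difference was -0.19, and the call was not kept under all 5 scalings. This hairpin overlaps piRNA genes, and whether its reads come from them was not tested.

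**Figure D4:**
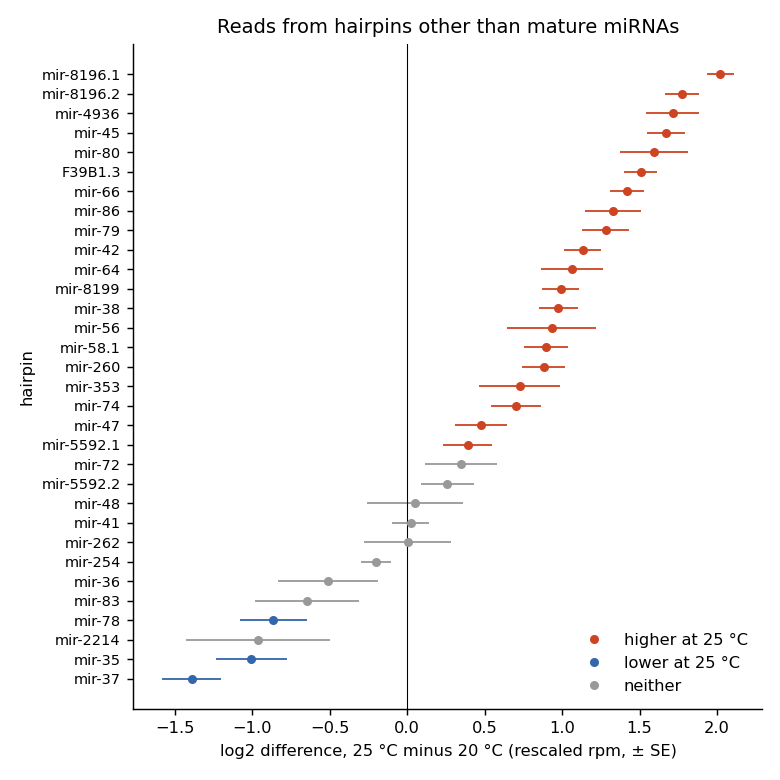
Log2 difference (25 °C minus 20 °C, rescaled rpm) with its standard error for the 32 hairpins tested, from reads outside their mature miRNAs. Colours mark hairpins past the threshold. There are 20 higher, led by mir-8196.1 at 2.02, and 3 lower, with mir-37 lowest at -1.39.

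The ERGO-class 26G siRNAs as a class did not move together, with 15 features higher and 6 lower of 45 and a median of 0.08. F55C9.5 and F55C9.3, neighbouring genes on chromosome V, had the largest rises. F55C9.5 had 8.38, 10.7 and 10.8 rescaled rpm at 20 °C and 24, 26, 20.9 and 25 at 25 °C (log2 difference 1.27, adjusted p = 2.88e-10). C01A2.1 rose by 1.03 and T16A1.9 by 0.95. Among features of at least 5 rpm without overlap, F52D2.6 fell from 28.3 to 31.7 rescaled rpm to 14.6 to 18.7, 1.9-fold, and T02G6.10 and ZK380.5 were lower by -0.58 and -0.46. The call of ZK380.5 was lost without the second library at 20 °C (-0.37).

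The 22G siRNAs of the same genes were then set against their 26G siRNAs. Both a 26G and a WAGO-class 22G feature were tested in 18 genes. Their 22G siRNAs were higher in 14 and lower in 1, and their 26G siRNAs were higher in 9 and lower in 0. Among the other 328 WAGO-class features tested, 86 were higher and 7 lower, and 41 of the 328 were under 1 rpm at 20 °C. The first of these counts is a description only, because 5 of the 18 genes had under 1 rpm of 22G siRNAs at 20 °C and were tested only through their level at 25 °C. The genes were grouped after the values had been seen. Within a library, their 22G reads per 100 26G reads were 7.46, 6.99 and 6.98 at 20 °C, and 12.5, 11.5, 12.6 and 12.1 at 25 °C. These are ratios of ligated reads, and whether the kit captures 22G and 26G siRNAs alike was not tested. The ratio of 22G to 26G reads needs no scaling between libraries, did not overlap between the temperatures and was 70.2% higher. Its exact permutation p of 0.0286, the smallest possible, is a description only as well, because the same 5 genes enter the ratio. The ratio was also taken over all 41 genes whose 26G siRNAs were tested and that list 22G siRNAs at any level. This choice was made after seeing the data and does not use the 22G values. The ratio of the 41 was 6.62 to 6.99 at 20 °C and 11.1 to 12.1 at 25 °C, 71.8% higher (exact permutation p = 0.0286). The 22G total of the 18 genes was 46.1 to 53.5 rpm and 93.1 to 106 rpm. Their 26G total, at 618 to 765 rpm and 737 to 851 rpm, overlapped (exact p = 0.200). The 41 genes include these 18, which hold most of their reads. For the 41, the 22G total was 53.8 to 64.0 rpm and 105 to 119 rpm. Their 26G total, at 770 to 942 rpm and 867 to 994 rpm, overlapped too (exact p = 0.371).

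Single genes show the range. For Y116F11A.1, on chromosome V from 19730580 to 19732242, 22G siRNAs were 0.927, 0.419 and 0.772 rescaled rpm at 20 °C and 6.36, 5.91, 7.56 and 5.43 at 25 °C, 8.22-fold higher, while its 26G siRNAs were higher by 0.44. Y116F11A.1 is among the 5 genes tested only through their 22G level at 25 °C, so its rise is a description only. For E01G4.5, on chromosome II from 13472401 to 13473995, the 22G siRNAs went from 2.97, 4.05 and 3.53 rescaled rpm to 15.5, 11.1, 11 and 10.8 (log2 difference 1.75, adjusted p = 3.44e-11). Its 26G siRNAs were at -0.08 (adjusted p = 0.607). The pseudogene F39E9.7 had 1.14 to 2.11 and 6.85 to 9.17 rescaled rpm of 22G siRNAs, 4.98-fold higher, against 0.65 on the log2 scale for its 26G siRNAs. Y17D7C.3, the gene with the most 26G reads of these, rose by 1.43 for 22G and 0.52 for 26G siRNAs, and without it the summed ratio was 65.7% higher. C44B11.6 was the gene called lower for 22G siRNAs (-1.04). These averaged 0.915 rpm at 25 °C and met the minimum only through 20 °C, and the libraries overlapped, so this call is a description only too. T05E12.10 (0.05), Y105C5A.14 (-0.14) and K02E2.6 (-0.31) passed in neither direction.

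**Figure D5:**
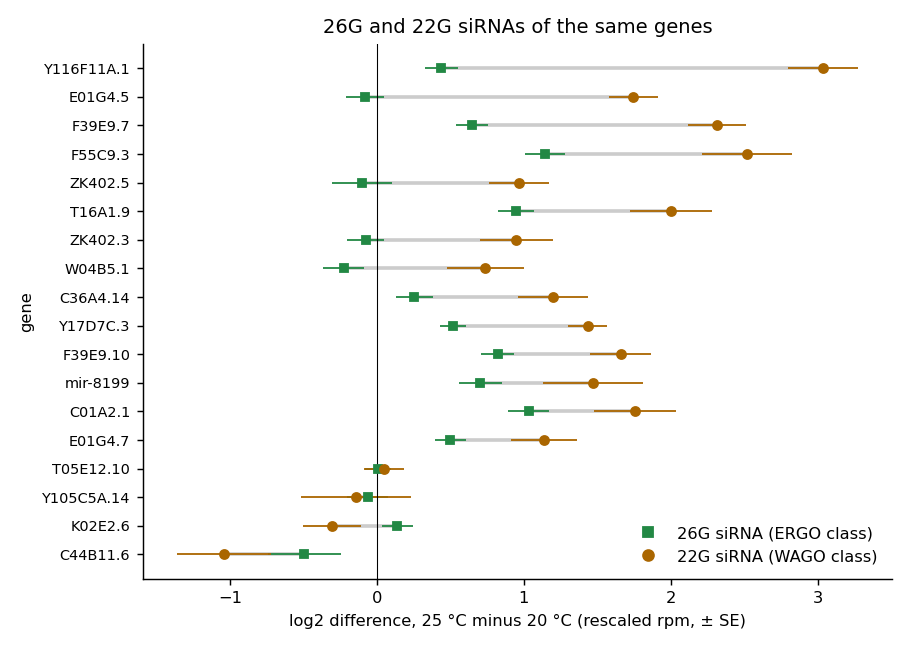
Log2 difference (25 °C minus 20 °C, rescaled rpm, with standard error) of ERGO-class 26G siRNAs (squares) and WAGO-class 22G siRNAs (circles) of the 18 genes in which both were tested. The genes passed a minimum that 5 of them, with Y116F11A.1, met only through 25 °C for 22G siRNAs. C44B11.6 met it only through 20 °C. Circles lie right of squares in 15 genes, by up to 2.6 for Y116F11A.1, and left of them in K02E2.6, C44B11.6 and Y105C5A.14.

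Of the 328 other WAGO-class features, 41 were under 1 rpm at 20 °C and so were tested through 25 °C, and 22 were higher by more than 1. Among those of at least 5 rpm whose libraries did not overlap, Y20F4.4 was higher by 0.73. The 7 decreases reached -1.29, and those that met the same limits were T05E12.8 (-0.57), Y57G11C.51 (-0.46), the pseudogene K08B4.5 (-0.45) and the pseudogene Y52B11A.18, which had 69.3 to 83.2 rescaled rpm at 20 °C and 52.5 to 60.2 at 25 °C. Without the third library at 20 °C, 16 WAGO-class features were lower in place of 8, and without the first the call of K08B4.5 was lost (-0.36). Among ALG-class 26G siRNAs, 4 of 25 tested features were higher and 1 lower. Without the first library at 20 °C these were 8 and 0, without the second 1 was higher, and without the third 3 were lower. Y57G11C.36 was higher, with 29.0 to 30.5 and 37.3 to 40.9 rescaled rpm, by 0.39, or 0.18 in deposited rpm. Of the 1399 ALG-class features listed, 25 reached the minimum of 1 rpm, so most of this class was too scarce to be tested in these hermaphrodites.

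CSR-class 22G siRNAs rose over many genes by small amounts. The median of 2622 tested features was 0.47, or 0.27 in deposited rpm, and 151 were higher by more than 1. The rise was spread over the genome, with medians of 0.46 to 0.51 on chromosomes I to V, and of 0.26 on the X chromosome, where 25 features were tested. The genes named here and below are those of at least 5 rpm without overlap, and scarcer ones reached 1.88. cec-6, which encodes a chromodomain protein, had 13.8, 11.2 and 11.4 rescaled rpm at 20 °C and 33.2, 27.6, 30.0 and 28.8 at 25 °C (log2 difference 1.3, standard error 0.122, adjusted p = 3.45e-11). ints-8, of the Integrator complex, rose 2.36-fold, from 5.94 to 12.1 rescaled rpm to 20.3 to 23.1. mut-7, whose product is an exonuclease, had 7.97, 6.71 and 6.37 rescaled rpm and then 14.9, 17.6, 14.8 and 17.6, 2.30-fold higher. hasp-1, a haspin-type kinase gene, rose 2.26-fold.

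Few CSR-class features fell, 13 in all, and this count was 6 without the first library at 20 °C and 8 without any 1 of the libraries at 25 °C. mdh-2, for mitochondrial malate dehydrogenase, went from 7.14 to 9.96 rescaled rpm to 4.77 to 6.22, 1.59-fold lower. act-2, an actin gene, was 1.46-fold lower, memi-1 1.34-fold lower, and W04A8.1 was lower by -0.39, a call lost without the first library at 20 °C (-0.32) or the fourth at 25 °C (-0.36). These 4 turned positive when libraries were scaled to the piRNA total. None of 6 tested heat shock protein genes (hsp) passed the threshold in either direction, with differences of -0.24 to 0.12. Of 8 ribosomal protein genes of the large subunit (rpl) 2 were higher, and of 8 of the small subunit (rps) 1 was higher, with none lower in these 3 groups. Over all CSR-class features tested, 47.7% were higher.

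The temperature difference in wild type was last set against that in pash-1(ram33) mutants, which carry a substitution in the Drosha partner Pasha, by an interaction term over all 14 libraries and 7119 features. It was above that of wild type in 1291 features (18.1%) and below in 1301 (18.3%). For piRNAs, 1044 of 3510 were above and 6 below, with medians of -0.49 in wild type and -0.08 in mutants. The piRNA total, 71730 to 81153 and 39460 to 44540 rpm in wild type, was 87831 to 100531 and 73966 to 85750 rpm in mutants. For CSR-class siRNAs, 0 were above and 1087 below of 2597 (medians 0.53 and -0.13), and the mutant total went from 14990 to 16696 rpm to 12996 to 14623 rpm. The ALG class gave 197 above of 218, but only 25 of these reached 1 rpm in the wild-type libraries alone, 24 of them above, and the others entered through the mutants. Its total over all listed features was 477 to 575 rpm at 20 °C and 2015 to 2598 rpm at 25 °C in mutants. The miRNAs gave 30 above and 107 below of 232. In deposited rpm, 1636 of all features were above and 804 below. The study reports that many of these mutants were sterile at the higher temperature, and that developmental defects there limit the reading of single miRNAs. Mutant and wild-type animals may therefore not have been alike in fertility or development at that temperature. How much of the differences between the genotypes follows from this was not tested.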

How the data were processed

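The libraries were made from total RNA with a ligation-based small RNA kit and selected for inserts of 16 to 30 nt. How completely the kit captures each class was not tested, so rpm values give reads and not amounts of each class in the animals. The authors trimmed reads with fastp, aligned them with bowtie to the C. elegans genome (WS279), assigned them to features with tinyRNA and deposited the result as RPM, reads scaled to the size of each library. A table per temperature lists the same features. At 20 °C the classes stood 1 line off their features and were moved back. The authors' own comparisons between strains, made with DESeq2, were not used. The low values did not give whole reads closely enough for a test on counts, so log2 values were tested.

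Computed here, with Python 3.11.15, SciPy 1.17.1, R 4.3.3 and limma 3.58.1: size factors (median of ratios over 7 libraries), lmFit and eBayes with trend and robust options on log2(rescaled rpm + 0.1), adjusted by Benjamini-Hochberg over 6412 features at 0.05. Two-sided exact permutation tests over 35 arrangements served for class totals and ratios in libraries. Ratios of arms and of iso-miRs used limma on log2 ratios. Libraries of one group differed beyond sampling noise and each counts as 1 (median chi-square of a pair, over features, 1.58 to 5.61). The fit was tested on simulated data.

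Members and lists were chosen with earlier results of these data known. The miRNAs named are the members of family lists, the 10 most abundant, and the 8 largest increases and decreases past the threshold that averaged at least 5 rpm and did not overlap. Other classes give 4 in each direction by that rule. 21UR-1 was not matched and is not analysed here. Positions come from the Ensembl WBcel235 annotation. Other pseudocounts, filters, scalings, variance settings, the replicate number and each library left out were tried.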

Additional observations from a re-analysis of the deposited data

Results flagged for a closer look

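In the 4 libraries at 25 °C, 1 library stood apart from the other 3 by Dixon's ratio (gap to the nearest library over the range) in 6 of the 117 values tested, where chance gives about 1 in 20. The limit for 4 libraries is the 95% critical value of that ratio. The second library had the highest total of the left piRNA stretch, at 1679 rpm (ratio 0.914). The fourth library had the lowest miR-52-3p, at 7.38 rescaled rpm (0.922), and the highest miR-1819-3p, at 12.4 (0.918). The first library had the highest 22G siRNAs of E01G4.5, at 15.5 rescaled rpm (0.95), and the highest of hasp-1, at 18.7 (0.932). The 22G siRNAs of K08B4.5 were highest in the second library, at 7.64 rescaled rpm (0.845).

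The temperature difference in mutants differed from that in wild type, by the limma interaction term with adjustment over 7119 features, in features of all 8 classes. Over all features it was above that of wild type in 18.1% and below in 18.3%. It was above in 1044 of 3510 piRNAs (6 below) and in 197 of 218 ALG-class features (1 below), of which only 25 reached 1 rpm in wild type alone, so that the minimum in large part chose features high in mutants. It was below in 1087 of 2597 CSR-class features (0 above), 107 of 232 miRNAs (30 above), 37 of 109 iso-miRs (7 above), 16 of 34 pre-miRNAs (2 above) and 20 of 47 ERGO-class features (1 above). In the WAGO class 27 of 372 were below and 10 above, each under the share over all features. The study reports sterility and developmental defects among these mutants at the higher temperature. How much of the differences in any class follows from them was not tested.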

How the results depend on the processing

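The scaling between libraries moved the counts most. In deposited rpm, scaled to the piRNA total and with size factors from miRNAs alone, features higher numbered 768, 3934 and 651, miRNAs higher 63, 208 and 56 and lower 34, 1 and 41, piRNAs higher 19, 751 and 16, and CSR-class features higher 587, 2515 and 490 and lower 30, 0 and 43. Scaled to the piRNA total, 473 features and 467 piRNAs were lower. With a minimum of 5 rpm, where fewer features are tested, 705 features were higher and 1078 lower, with 11 and 1041 piRNAs and 515 and 8 CSR-class features. With no minimum, 4 CSR-class features were lower, and the cause was not tested. Totals of rescaled rpm were higher by 37.7% for the CSR class, 23.8% for the WAGO class and 23.2% for the ERGO class, each then past 0.05 before adjustment. In deposited rpm, 804 features had a lower temperature difference in mutants.

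Scaling to the piRNA total, which by construction raises every difference, turned 20 of the 102 named features positive: miR-34-5p (0.644), miR-78 (0.16), miR-790-5p (0.217), miR-1819-3p (0.0972), miR-34-3p (0.101), miR-84-3p (0.407), miR-790-3p (0.183), miR-41-5p (0.486), miR-1830-3p (0.0839), act-2 (0.137), mdh-2 (0.0166), memi-1 (0.267), the 26G siRNAs of E01G4.5 (0.609), W04A8.1 (0.299), K08B4.5 (0.239), Y57G11C.51 (0.234), ZK380.5 (0.227), T05E12.8 (0.118), T02G6.10 (0.1) and Y52B11A.18 (0.284). With size factors from miRNAs alone, miR-39-3p (-0.0417), miR-65-5p (-0.00152), miR-71-5p (-0.0483) and miR-45-5p (-0.00871) turned negative, as did miR-71-5p in deposited rpm (-0.00183).

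With the replicate number as a block, 14 hairpins had a changed arm ratio and 0 miRNAs a changed iso-miR ratio, and 96 of the 102 named features kept their direction and their side of the threshold. Deviations from the group means of libraries with the same number correlated at 0.142, -0.0216 and -0.0328 (other pairs -0.198 to 0.221), and not every library correlated best with its own number. Pseudocounts of 1 and 0.01 rpm changed no call of a named feature. Without trend and robust options 13 calls were lost.

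Leaving out 1 library gave 1275 to 1685 features higher and 1591 to 1899 lower, 103 to 125 and 15 to 19 miRNAs, 38 to 58 and 1525 to 1857 piRNAs, and 947 to 1327 and 6 to 17 CSR-class features. It gave 17 to 27 hairpins with a changed arm ratio and 2 to 7 miRNAs with a changed iso-miR ratio. Totals changed by 3.11 to 4.11% for miRNAs, 5.0 to 6.4% for iso-miRs, 72.9 to 81.6% for pre-miRNAs, -48.3 to -45.1% for piRNAs, 15.8 to 23.4% for the CSR class, 4.27 to 9.96% for the WAGO class, -19.7 to 1.11% for the ALG class and 0.133 to 10.2% for the ERGO class. The ratio of the piRNA stretches changed by -44.9 to -42.7%, and the ratio of 22G to 26G reads by 68.0 to 74.1%. Of the alternatives chosen after seeing the data, tested piRNAs alone gave -44.8% for the first ratio, and the others stand beside their results. With 3 libraries against 4, a class total cannot pass 0.05 by the exact test after adjustment over 8 classes unless most classes reach the smallest p.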
